A study of Homo sapiens with 3 samples.

Results

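The interferon receptor, its Janus kinases and the interferon regulatory factors (IRFs) were described here as a set of 8 genes: IFNAR1, IFNAR2, JAK1, TYK2, STAT2, IRF9, IRF7 and IRF1. All probe sets that the array annotation assigns to exactly 1 of these symbols were taken, with no filter on expression, which gave 17 of 54613 probe sets. They covered 7 of the 8 genes, with 5 probe sets for JAK1, 4 for IFNAR1, 3 for IFNAR2, 2 for IRF1 and 1 each for TYK2, IRF9 and IRF7. Expression of STAT2 was not analysed here.

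The cells were HCT116, an established human colorectal carcinoma line, measured on 3 Affymetrix arrays. Each culture had received lentivirus with a short hairpin RNA and was kept 6 days under puromycin, so infection and selection are common to all groups. The Scr_shRNA culture carried a scrambled hairpin and served as the control (1 array). The UHRF1_sh2 and UHRF1_sh5 cultures carried hairpin 2 or hairpin 5 against UHRF1, a protein needed to copy DNA methylation after replication (1 array each). The study asked which transcripts depend on UHRF1. Levels are log2 values. A difference is the log2 value of a hairpin array less that of the control array, unless another pair is named. The 2 hairpin arrays were treated as replicates of UHRF1 depletion, so an SD with n = 2 is the spread between hairpins. Nothing in the labels describes repeat cultures of 1 hairpin, so p-values measure only the spread between these arrays.

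Type I interferons bind a receptor made of IFNAR1 and IFNAR2. IFNAR1 is bound by the kinase TYK2 and IFNAR2 by the kinase JAK1, and ligand binding lets these kinases phosphorylate STAT proteins. STAT2, a partner STAT and IRF9 form the complex ISGF3, which binds the interferon-stimulated response element (ISRE) in promoters of antiviral genes. Dimers of STAT proteins bind another site, the gamma-activated site (GAS), through which IRF1 is induced. IRF9 and IRF7 are themselves interferon-inducible, and IRF7 drives transcription of interferon alpha genes. Epithelial cells such as those of the colon carry this receptor.

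Promoter sequences are shown for IRF9 and IRF1 because these factors act at the end of the pathway, each carried a GAS match and differed widely in CpG content. UHRF1 acts on methylated CpG. The sequences are from RefSeq (GRCh38.p14), which held 9 promoters for 6 of the 8 genes (IRF7 and IFNAR2 not among them), each of 250 bases before to 50 after a transcription start. CpG dinucleotides are in capitals. The IRF9 window is chr14:24161015-24161314 on the plus strand, and the IRF1 window is chr5:132490724-132491023 on the minus strand.
IRF9: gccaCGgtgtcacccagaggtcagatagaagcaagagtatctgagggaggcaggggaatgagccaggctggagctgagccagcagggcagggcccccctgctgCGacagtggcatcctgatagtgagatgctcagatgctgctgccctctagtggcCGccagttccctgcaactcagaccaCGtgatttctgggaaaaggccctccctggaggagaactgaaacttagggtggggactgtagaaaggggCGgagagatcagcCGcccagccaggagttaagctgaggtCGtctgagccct
IRF1: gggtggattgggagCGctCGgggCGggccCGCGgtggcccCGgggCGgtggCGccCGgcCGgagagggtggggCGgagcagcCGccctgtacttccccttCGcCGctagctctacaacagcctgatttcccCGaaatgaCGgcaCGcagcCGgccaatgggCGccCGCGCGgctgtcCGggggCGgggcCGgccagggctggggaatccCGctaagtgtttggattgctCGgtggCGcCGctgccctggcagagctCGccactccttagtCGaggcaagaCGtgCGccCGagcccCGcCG
The IRF9 window held 7 CpG and the IRF1 window 36, against a median of 14 (quartiles 4 and 28) over 35116 RefSeq promoters. TYK2 had 24 CpG, STAT2 had 25, the 2 starts of IFNAR1 had 19 and 30, and the 3 starts of JAK1 had 15, 9 and 43. The array holds no methylation measurement.

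The windows were searched on both strands for the ISRE core GAAANNGAAA and for the GAS core TTCNNNGAA. The GAS core was present in IRF9, beginning 63 bases before the start, and in IRF1, beginning 124 bases before it. These matches are in capitals in the following lines.
IRF9 GAS match, chr14:24161192-24161220: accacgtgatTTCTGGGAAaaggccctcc
IRF1 GAS match, chr5:132490879-132490907: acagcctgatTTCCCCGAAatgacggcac
Of the 9 member promoters 2 held the GAS core, as did 7.66% of all promoters. The ISRE core was in 0 of the 9 and in 3.57% of all promoters. A match or its absence describes these letters only.

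The targeted gene was lower with both hairpins. UHRF1 read 8.54, 6.20 and 6.67 on the control, hairpin 2 and hairpin 5 arrays, in the order used for all such triplets here. Array medians lay between 2.98 and 3.04. Epithelial markers were present, with EPCAM at 10.23 and KRT18 at 12.26 on the control array, although the intestinal genes CDH17 (2.68) and VIL1 (3.13) were near the array median. The 8 leukocyte markers with a probe set ran from PTPRC at 2.51, 2.55 and 2.75 to CD79A at 3.93, 3.75 and 4.28, with HLA-DRA at 3.63, 3.58 and 3.64. The log2 values of the leukocyte markers added up to 23.53 in the control, 23.71 under hairpin 2 and 24.53 under hairpin 5. Such sums of log2 values are not summed RNA amounts. For the 9 fibroblast and endothelial markers these sums were 29.13, 29.71 and 30.04. Single levels ran from LUM at 2.32, 2.32 and 2.31 to COL1A1, a collagen gene, at 5.82, 6.39 and 5.75, which was 1.49-fold higher with hairpin 2. The cultures were of an established carcinoma line, so these readings were not taken as shares of other cell types.

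IRF9 and IRF7, transcription factors known to be induced by type I interferon, were several-fold higher with hairpin 2 and slightly below the control with hairpin 5. JAK1 was lower with both hairpins on its 2 brightest probe sets. IRF1, TYK2 and both receptor chains stayed within 1.5-fold of the control on every probe set with both hairpins. With 1 array per hairpin and 1 control array, these are differences between single arrays. No member passed limma's test, but neither did the targeted gene UHRF1, so that test could not decide on them.

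**Figure D1:**
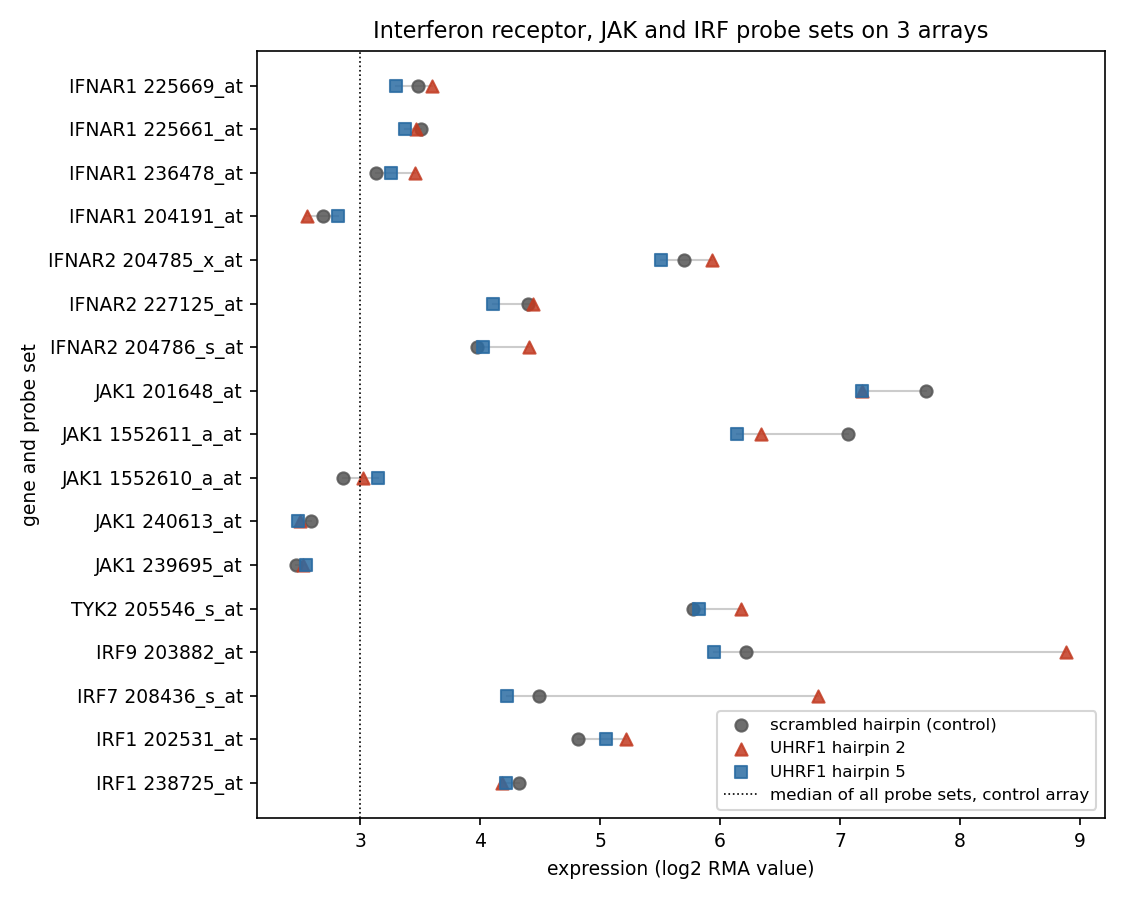
Expression (log2 RMA value, horizontal axis) of each of the 17 probe sets (vertical axis, with gene) on the control, hairpin 2 and hairpin 5 arrays, 1 point per array; the dotted line is the median of all probe sets on the control array (3.002). IRF9 and IRF7 lie far to the right with hairpin 2 only (8.88 and 6.82), and the 2 upper JAK1 probe sets lie left of the control with both hairpins.

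IRF9 is the DNA-binding subunit of ISGF3. Its probe set 203882_at read 6.22 in the control, 8.88 under hairpin 2 and 5.95 under hairpin 5. The hairpin 2 array alone was high, and the control and hairpin 5 arrays were within 0.27 of each other. Under hairpin 2, IRF9 exceeded the control 6.36-fold, the 28th largest positive difference of 54613 probe sets, while under hairpin 5 it was 1.20-fold lower. Averaged over hairpins the difference was 1.20 ± 2.07 (SD, n = 2 hairpins), smaller than the spread between hairpins (limma adjusted p = 0.9998 over all probe sets). A further probe set, 220788_s_at, is annotated to both RNF31 and IRF9 and was not counted as a member. It read 4.77, 5.08 and 4.56 on the control, hairpin 2 and hairpin 5 arrays, an excess of 0.31 with hairpin 2 where 203882_at showed 2.67. In bulk RNA, a higher level in all cells and a much higher level in some of them cannot be told apart.

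IRF7 showed the same arrangement of arrays. Its probe set 208436_s_at read 4.49 in the control, 6.82 under hairpin 2 and 4.23 under hairpin 5. Under hairpin 2 it exceeded the control 5.00-fold, the 38th largest positive difference, while hairpin 5 was 1.20-fold below it. The average over hairpins of 1.03 ± 1.83 (SD, n = 2 hairpins) was again smaller than the spread between hairpins (limma adjusted p = 0.9998). Set directly against hairpin 5, hairpin 2 was 7.63-fold higher for IRF9 and 6.02-fold higher for IRF7. These ranked 18th and 27th among all probe sets for that contrast, which has no replicate.

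IRF1, an early interferon-induced activator with a GAS in its promoter, differed little. Probe set 202531_at read 4.82, 5.21 and 5.05 on the control, hairpin 2 and hairpin 5 arrays. It exceeded the control 1.31-fold and 1.17-fold with hairpin 2 and hairpin 5, an average difference of 0.31 ± 0.12 (SD, n = 2 hairpins; limma adjusted p = 0.9998). The other probe set, 238725_at, read 4.32, 4.19 and 4.22, and so lay below the control on both arrays. The probe sets of IRF1 therefore disagreed in sign, each by under 0.40.

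JAK1, the kinase bound to IFNAR2, was below the control under either hairpin on its 2 brightest probe sets. Probe set 201648_at read 7.72 in the control, 7.18 under hairpin 2 and 7.19 under hairpin 5. Their average difference was −0.534 ± 0.004 (SD, n = 2 hairpins), so that hairpin 2 was 1.45-fold and hairpin 5 1.44-fold below the control. Probe set 1552611_a_at read 7.06, 6.34 and 6.14 on the same arrays, 1.65-fold and 1.9-fold lower, with a mean difference of −0.82 ± 0.14 (SD, n = 2 hairpins). On both probe sets the hairpin arrays lay below the control and closer to each other than to it. These were the 2 member probe sets with an unadjusted limma p under 0.05, as had 1595 of all 54613, and neither passed after adjustment (adjusted p = 0.9998). The control is a single array that enters both differences. The remaining JAK1 probe sets read between 2.47 and 3.15 on all arrays, around or below the array median, and did not share one direction. With hairpin 2 and hairpin 5, 1552610_a_at differed by 0.16 and 0.29, 239695_at by 0.06 and 0.08, and 240613_at by −0.09 and −0.10. Averaged over its 5 probe sets, JAK1 differed by −0.22 with hairpin 2 and −0.24 with hairpin 5.

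TYK2, the kinase bound to IFNAR1, read 5.78 in the control, 6.18 under hairpin 2 and 5.82 under hairpin 5 (205546_s_at). It was 1.32-fold higher with hairpin 2 and within 0.05 of the control with hairpin 5, with a mean difference of 0.22 ± 0.25 (SD, n = 2 hairpins). IFNAR2 was read by 204785_x_at at 5.70, 5.93 and 5.51 on the control, hairpin 2 and hairpin 5 arrays. It differed by 0.24 and −0.19 there, by 0.05 and −0.29 on 227125_at, and by 0.44 and 0.05 on 204786_s_at, with hairpin 2 and hairpin 5. Hairpin 2 was the highest array on each IFNAR2 probe set.

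IFNAR1 was close to the array median throughout. Its 4 probe sets read between 2.56 and 3.60 over all arrays, and the values carry no detection calls, so part of this signal may be background. The brightest, 225669_at, read 3.48 in the control, 3.60 under hairpin 2 and 3.30 under hairpin 5. Its differences were 0.12 with hairpin 2 and −0.18 with hairpin 5. On 225661_at they were −0.04 and −0.13, on 236478_at 0.33 and 0.12, and on 204191_at −0.13 and 0.13, so no array was highest on all of them.

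Counted over the set, 2 of 17 probe sets (IRF9 and IRF7) exceeded the control by 2-fold or more under hairpin 2, where 0.558% of all probe sets were. With hairpin 2, 0 were 2-fold lower (0.222% of all). With hairpin 5, 0 were 2-fold higher (0.135% of all) and 0 were 2-fold lower (0.683% of all). The same 2 probe sets were at least 2-fold higher with hairpin 2 than with hairpin 5, as were 1.14% of all. Of the 17, 6 were higher with both hairpins (31.7% of all), 5 lower with both (30.8% of all) and 6 mixed (37.5% of all), shares near those over all probe sets, from which nothing is read. Median differences were 0.12 for hairpin 2 and −0.10 for hairpin 5, beside −0.01 and 0.01 over all probe sets. With 1 probe set per gene they were 0.40 and −0.19 over 7 genes, and with probe sets averaged within genes 0.24 and −0.14. Limma's test of both hairpins against the control called 0 of 17 and 0 of 54613 probe sets, 0% of all, at an adjusted p of 0.05. UHRF1 itself was lower on both hairpin arrays, by 5.09-fold under hairpin 2 and 3.68-fold under hairpin 5. The hairpin arrays were 0.47 apart for UHRF1, 2.93 for IRF9 and 2.59 for IRF7. Whether the degree of UHRF1 depletion bears on IRF9 and IRF7 was not tested.

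**Figure D2:**
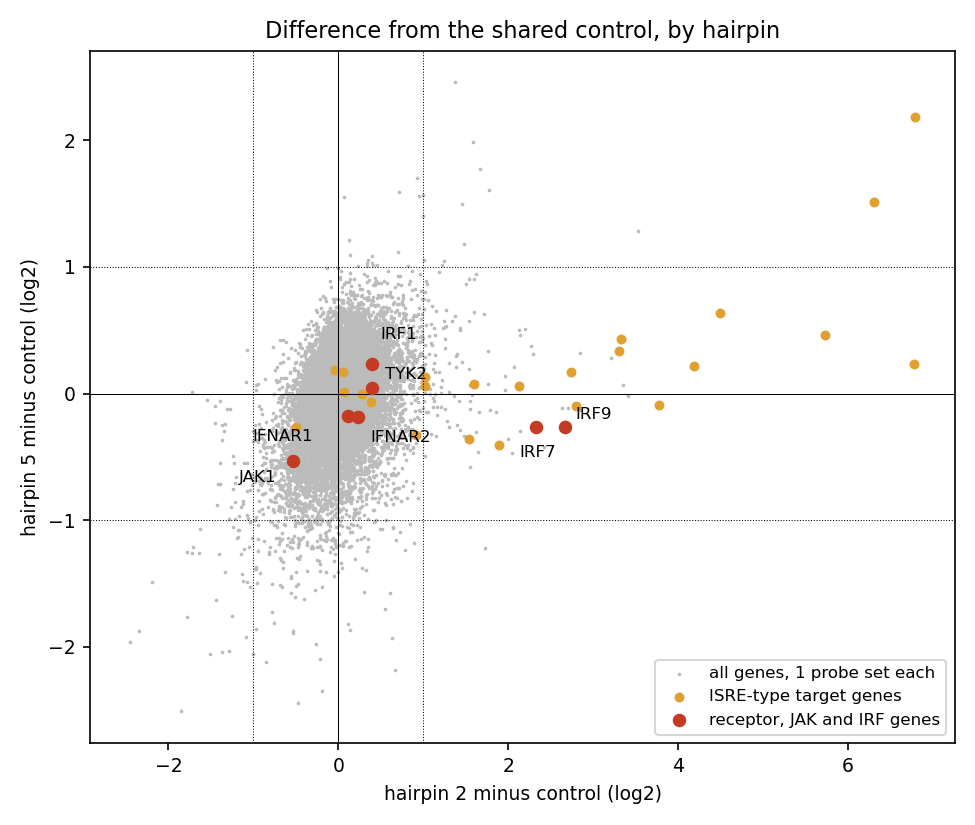
Difference from the control with hairpin 2 (horizontal axis, log2) against that with hairpin 5 (vertical axis, log2), 1 point per gene (19775 genes, the probe set with the highest mean); dotted lines mark 2-fold, and the control array enters both axes. IRF9 and IRF7 lie at 2.67 and 2.32 on the horizontal axis and just under 0 on the vertical one, among genes of the ISRE type (orange), while JAK1 lies at the lower left.

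By the distance between pairs of differences, over 3 arrays and 19774 other genes, the genes most like IRF9 were DDX60, SP110, DTX3L, OAS3 and KRT20. DDX60, a helicase of antiviral RNA sensing, was nearest (distance 0.02), reading 3.05, 5.72 and 2.80 on the control, hairpin 2 and hairpin 5 arrays. OAS3, an oligoadenylate synthetase, read 5.01, 7.80 and 4.91. SP110, a nuclear body protein, differed by 2.70 and −0.12 and the ubiquitin ligase DTX3L by 2.63 and −0.12 with hairpin 2 and hairpin 5. KRT20, an intestinal keratin, differed by 2.85 and −0.13.

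Genes known as ISRE-type targets of ISGF3 were largely higher with hairpin 2. The list was chosen with earlier results of these data known, so its counts are a description and not independent support. Taking 1 probe set per gene, 18 of 25 were at least 2-fold higher (0.728% of all genes), 0 were 2-fold lower (0.364% of all genes), and the median difference was 2.13. With hairpin 5, 2 were 2-fold higher (0.152% of all genes), 0 were 2-fold lower (1.17% of all genes), and the median was 0.07. IFIT1, an antiviral RNA-binding protein, read 3.22, 10.01 and 5.41. IFI27 read 3.81, 10.58 and 4.04, IFITM1 read 4.15, 10.46 and 5.66, and IFI6 read 5.90, 11.63 and 6.37. Thus IFIT1 and IFITM1 were the list members past 2-fold with hairpin 5, on an array where IRF9 and IRF7 were not above the control. On the control array 20 of the 25 reached that array's 40th percentile, so some had a low starting level and their folds are uncertain. The ISRE core was found in 20 of 30 promoters of this list, belonging to 16 of the 21 genes with a promoter entry.

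Among genes known as targets of STAT dimers or IRF1, 1 of 17 was at least 2-fold higher with hairpin 2 (0.728% of all genes) and 0 with hairpin 5 (0.152% of all genes). The medians were −0.01 and −0.02. Between the hairpin arrays, 2 of the 17 were 2-fold or more higher under hairpin 2 (1.84% of all genes). PSMB9, a subunit of the immunoproteasome, was past 2-fold in both contrasts, at 6.39, 7.41 and 5.90. TAP1, a peptide transporter picked after its values were seen, was past it between the hairpins, at 5.72, 6.51 and 5.42, and was 1.73-fold above the control with hairpin 2. On the control array 10 of the 17 reached the 40th percentile. The core sequences overlapped between lists: the ISRE core was in 10 of 16 promoters of this list and the GAS core in 7.

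**Figure D3:**
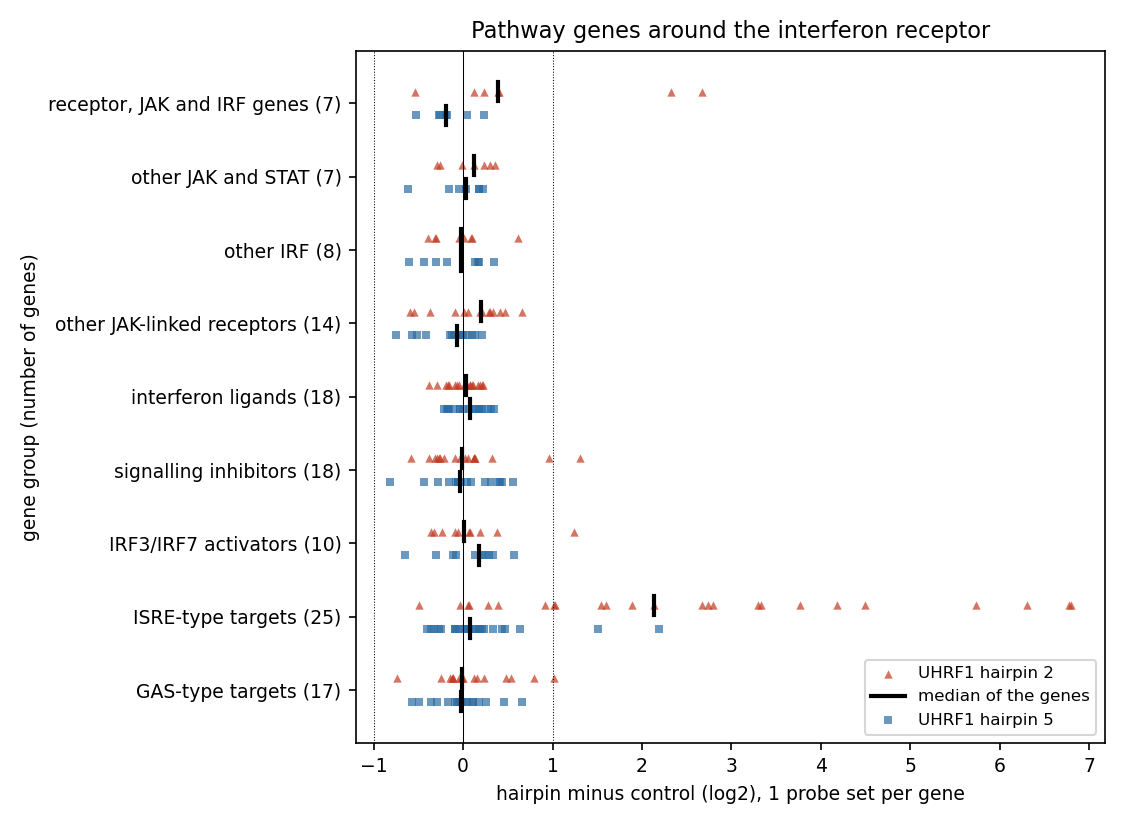
Differences from the control (log2, horizontal axis) with hairpin 2 (triangles) and hairpin 5 (squares) for the genes of each group (vertical axis, number of genes in brackets), 1 probe set per gene, with black bars at the medians and dotted lines at 2-fold. The ISRE-type targets have a median of 2.13 with hairpin 2 and 0.07 with hairpin 5, while the medians of the other pathway lists lie between −0.07 and 0.20.

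Interferon genes themselves were near the low end of the arrays. The 18 ligand genes with a probe set read between 2.09 and 3.10 in the control, between 2.14 and 3.14 under hairpin 2 and between 2.14 and 3.16 under hairpin 5. None was 2-fold from the control with either hairpin. Over all genes 0.728% were higher and 0.364% lower with hairpin 2, and 0.152% and 1.17% with hairpin 5, so nothing is read from that count. IFNB1, the gene of interferon beta, read 2.54, 2.64 and 2.42 on the control, hairpin 2 and hairpin 5 arrays. The interferon lambda gene IFNL1 read 3.10, 3.14 and 3.16, and both genes were picked after their values were seen. The furthest from the control were IFNA21 (−0.38 and −0.18) and IFNE (0.07 and 0.35). At these levels a low transcript could not be told from background.

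In the remaining lists no gene lay as far from the control as IRF9 or IRF7 did with hairpin 2. Of 18 inhibitors of receptor signalling, 1 was 2-fold higher with hairpin 2 (0.728% of all genes). This was USP18, which binds IFNAR2 and limits signalling, at 3.59, 4.89 and 3.83. Of 10 kinases and adaptors upstream of IRF3 and IRF7, 1 was 2-fold higher with hairpin 2 (0.728% of all genes). This was MYD88, an adaptor of Toll-like receptors, at 6.41, 7.66 and 6.98. With hairpin 5, 0 genes of either list were 2-fold from the control. Over all genes 0.152% were 2-fold higher and 1.17% lower with hairpin 5, so nothing is read from that count. The SOCS1 and SOCS3 feedback genes, also picked afterwards, differed by −0.32 and −0.26 with hairpin 2 and by 0.04 and 0.44 with hairpin 5.

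Among 7 other JAK and STAT genes and 8 other IRF factors and IRF2-binding proteins, 0 were 2-fold from the control with either hairpin. Over all genes 0.728% were higher and 0.364% lower with hairpin 2, and 0.152% and 1.17% with hairpin 5. For lists this small a count of 0 is near these shares, and nothing is read from it. The largest differences were those of STAT4 (0.12 and −0.62), STAT6 (0.36 and 0.18), IRF3 (0.61 and 0.35) and the corepressor IRF2BP2 (−0.05 and −0.61). Of 14 other receptors that use these kinases, 0 were 2-fold from the control with either hairpin, again near the shares over all genes. IL6ST, the shared chain of interleukin 6 type receptors, differed by −0.59 and −0.41. IL10RB, a chain of the interferon lambda receptor, read 5.14, 5.80 and 4.39.

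The genes next to the members on their chromosomes were read for comparison, taking the 2 nearest genes with a probe set on each side by order in the RefSeq table. Of 26 such neighbours, 0 were 2-fold from the control in either direction with either hairpin. Over all genes 0.728% were 2-fold higher and 0.364% lower with hairpin 2, and 0.152% and 1.17% with hairpin 5. The count of 0 is near these shares, and nothing is read from it. Beside IRF9, RNF31 differed by 0.10 and 0.28 and REC8, a meiotic cohesin subunit, by 0.84 and 0.08 with hairpin 2 and hairpin 5. Beside IRF7, PHRF1 differed by 0.18 and 0.03 and CDHR5 by −0.11 and −0.28. The receptor genes IFNAR2, IL10RB, IFNAR1 and IFNGR2 follow each other in that order, and of these IL10RB had the largest gap between hairpins, at 1.41.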

How the data were processed

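RNA from 3 HCT116 cultures was measured on single-colour arrays of biotin-labelled cRNA, 1 array each. Per the submitters' processing notes, the authors used RMA in Affymetrix Expression Console to obtain the deposited log2 values. Versions and settings are not given in the sources used here. Log2 was read from the span of the values, 1.95 to 14.06 on the control array, and any further centring is unknown. The number of arrays limits the precision.

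Of 54613 probe sets, 41091 had 1 gene in the platform annotation, 1801 had several and 11721 were unnamed here. Gene identifiers of 41037 matched RefSeq (GRCh38.p14). For gene-level values, each of 19775 genes took its brightest probe set, by the mean of the arrays. Hairpin and control arrays were compared over all probe sets with limma 3.58.1 in R 4.3.3 (lmFit, eBayes), two-sided, with Benjamini-Hochberg adjustment. The fit has 1 residual degree of freedom per probe set (3.63 after moderation), and the lone control is assumed to vary like the hairpin arrays. The script was tested on simulated data. An exact permutation over 3 arrays cannot go below p = 0.333. Where 1 array was set against 1, a 2-fold difference was counted, with no test.

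Members, pathway lists and rules were chosen with earlier results of these data known. Named were all member probe sets, UHRF1, up to 4 genes of each pathway list past 2-fold (otherwise the 2 furthest from the control) and the 5 genes most like the member with the largest difference. Markers and chromosomal neighbours were given by counts and examples picked after their values were seen. Alternatives were median centring, cyclic loess, other fold thresholds (1.5 and 3), a filter at the 40th percentile, omission of _x_at probe sets, probe set means, other variance priors, an adjusted p of 0.1, 1 probe set per gene and omission of either hairpin.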

Additional observations from a re-analysis of the deposited data

Results flagged for a closer look

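IRF9 and IRF7 lay above the control with hairpin 2 and below it with hairpin 5. Hairpin 2 minus hairpin 5 was 2.93 for IRF9 and 2.59 for IRF7. With 1 array per hairpin this difference was not tested.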

How the results depend on the processing

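The counts of member probe sets past 2-fold kept their value under median centring, cyclic loess, the filter at the 40th percentile and omission of _x_at probe sets. At 1.5-fold, 1 member probe set (JAK1) was lower with hairpin 2 and 1 with hairpin 5, where 0 were at 2-fold. It was 1552611_a_at with either hairpin, the 374th and 492nd largest negative difference of 54613 probe sets with hairpin 2 and hairpin 5. At 3-fold, IRF9 and IRF7 were again the 2 higher with hairpin 2. Shares of all probe sets past 1.5-fold or 3-fold are not given here, so these counts have no background beside them. The mean differences of IRF9 and IRF7 over both hairpins rested on hairpin 2: without it they were −0.26 and −0.27, and without hairpin 5 they were 2.67 and 2.32. The median mean difference of the 17 probe sets was 0.02, and ranged from −0.10 to 0.12 when either hairpin was left out. Limma called 0 member probe sets and 0 of all under every alternative run, and the count of members at an unadjusted p under 0.05 was 1 or 2. The lowest adjusted p over all probe sets was 0.456, with an intensity trend. For single genes, rescaling moved a difference by at most 0.10, averaging the probe sets by at most 0.31, and omission of _x_at probe sets by at most 0.19, which took IFNAR2 with hairpin 2 from 0.24 to 0.05. The median member difference with hairpin 2 was 0.12, 0.20 with the filter and 0.24 with probe set means, and with hairpin 5 −0.10, −0.15 and −0.14. No paired analysis was possible because the control has 1 array, so the groups share fewer than 2 replicate numbers, and those numbers only follow sample order. Depth in the sense of read counts does not apply, and low levels such as those of IFNAR1 and the interferon genes are limited by background.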
